A study of Sus scrofa with 12 samples.

Results

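FKBP5 encodes an immunophilin, FKBP51, that binds HSP90 in the complex of the glucocorticoid receptor and lowers the affinity of the receptor for its hormone. The receptor in turn induces FKBP5, which closes a short negative feedback loop on glucocorticoid signalling. In human cells the receptor is known to bind within introns of the gene as well as outside it. In skeletal muscle glucocorticoids act on protein breakdown and on the choice between glucose and fat as fuel.

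ATAC-seq, in which a transposase cuts accessible DNA so that reads accumulate where chromatin is open, was carried out on longissimus dorsi muscle from 3 boars of the Duroc breed and 3 of the Luchuan breed. All were 180 days old, were kept under the same conditions and were fasted overnight before death. No treatment, allele or transgene is given in the labels for either breed. The deposited table holds 1 read count for Duroc and 1 for Luchuan in each of 217213 intervals, so boars of the same breed cannot be separated, no value below has a standard deviation, and breed and pooled library cannot be told apart. Only the ATAC-seq of the muscle was used here.

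The FKBP5 window is the 200 kb stretch of chromosome 7 from 31400001 to 31600000 (Sscrofa11.1), and an interval belongs to it by its midpoint. FKBP5 itself lies from 31441764 to 31550704 and spans 108.941 kb. The window holds 79 of the 217213 intervals, which became 53 of 140081 regions once overlapping intervals called in both breeds were merged. Of these regions 35 lay within FKBP5, 5 below its lower coordinate and 13 above its upper coordinate. The window had been selected on the read counts of these same libraries, so all differences between the breeds in it are a description without a test. The annotation used here gives no strand or exons, so the ends of the gene are called lower and upper, and the parts of the gene were not told apart.

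The whole table set the scale. The 140081 regions held 20760292 Duroc reads and 13746432 Luchuan reads, with medians of 61 and 38 reads per region. Luchuan counts were therefore put on the Duroc scale by a factor of 1.48, which sets the median log2 ratio of the regions called in both breeds to 0. A log2 ratio here is that of Luchuan to Duroc reads with 0.5 added to each and after this scaling, and its bracketed range is a 95% Clopper-Pearson interval. Reads carry no molecular identifiers, so these intervals cover counting error only and hold no spread between boars.

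Chromatin over FKBP5 was more open in Luchuan than in Duroc along almost the whole gene. Over the 35 regions of the gene body, 2599 Luchuan reads stood against 1619 Duroc reads before any scaling, in 8781 bases. This is 296 Luchuan and 184 Duroc reads per kb, whereas all regions of the table together had 276 Luchuan and 417 Duroc reads per kb. The log2 ratio of the summed reads of FKBP5 was 1.25 (1.16 to 1.34), or 2.37-fold higher in Luchuan. The median over its regions was 1.61, or 3.06-fold, with an interquartile range of 1.25 to 1.97. In the whole table the median was -0.010 and the central 95% of regions lay between -1.36 and 1.56.

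Of the 35 regions of the gene body, 30 were 2-fold or more higher in Luchuan, against 7.57% of all regions. None was 2-fold or more higher in Duroc, against 5.68% of all regions. At 1.5-fold the number higher in Luchuan was 31, with 15.3% in the whole table, and at 3-fold it was 18, with 2.48%. All 35 had a scaled log2 ratio above 0, as had 48.9% of all regions. As deposited, without scaling, 31 of the 35 held more Luchuan than Duroc reads, which was so for 15.4% of all regions. The counting interval lay wholly above 0 for 33 of the 35 and for 13.5% of all regions. The regions of 1 gene share the same pair of pooled libraries and are not replicates of a breed.

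**Figure D1:**
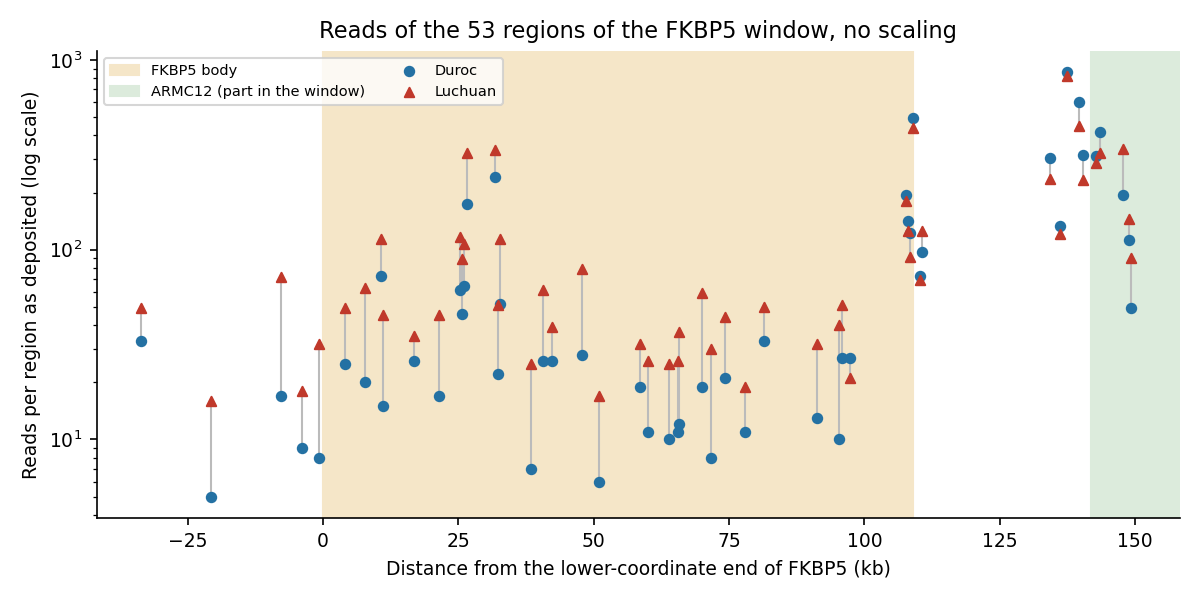
Reads per region as deposited (log scale) against the distance of the region from the lower end of FKBP5 in kb, for the 53 regions of the window, with a line joining the Duroc (circle) and Luchuan (triangle) count of each region. Luchuan lies above Duroc in 31 of the 35 regions of the gene body (shaded), in all 5 below it and in 4 of the 13 above it.

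The 6 regions with the most reads in the gene body differed by position. At 31473196 to 31473922, 336 Luchuan reads stood against 240 Duroc reads, a log2 ratio of 1.05 (0.81 to 1.29). The region from 31468021 to 31468717 had 324 and 174 reads and a log2 ratio of 1.46 (1.19 to 1.74). The region from 31452236 to 31452548 had 114 and 73 reads, with 1.20 (0.77 to 1.65). These lie within the lowest 36.3 kb of the gene, and in each of them Luchuan exceeded Duroc before scaling.

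The other 3 of these 6 regions lie within 2 kb of the upper end, and in them Duroc had more reads as deposited. They held 181 Luchuan and 195 Duroc reads from 31549209 to 31549578, with a log2 ratio of 0.46 (0.16 to 0.76). From 31549680 to 31550006 there were 125 and 141 reads, with 0.39 (0.03 to 0.75). From 31550088 to 31550314 there were 91 and 123 reads, with 0.13 (-0.28 to 0.53). After scaling these were 1.10-fold to 1.37-fold higher in Luchuan. Together they summed to a log2 ratio of 0.35 (0.16 to 0.55), against 1.49 (1.39 to 1.59) for the other 32 regions of the gene body, a division made after the values were seen.

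The 6 regions with the largest log2 ratios in the gene body were weak in Duroc. At 31536900 to 31537095, 40 Luchuan reads stood against 10 Duroc reads, a log2 ratio of 2.51 (1.54 to 3.73). The region from 31513310 to 31513459 had 30 and 8 reads, with 2.41 (1.31 to 3.81). The region from 31480005 to 31480154 had 25 and 7 reads, with 2.33 (1.15 to 3.85). All 3 were called as peaks in Luchuan alone. With so few Duroc reads each interval spanned more than 2 units of log2, so these regions cannot be ranked among themselves at this depth.

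The next 3 regions had more Duroc reads and narrower intervals. At 31449314 to 31449530, 63 Luchuan reads stood against 20 Duroc reads, with a log2 ratio of 2.20 (1.47 to 3.02). The region from 31511702 to 31511934 had 59 and 19 reads, with 2.17 (1.43 to 3.03). The region from 31507456 to 31507627 had 37 and 12 reads, with 2.15 (1.22 to 3.26). The intervals of all 6 overlap one another and lie wholly above the 2-fold line. All 6 were called in Luchuan alone and were picked for their large ratios, so their height follows in part from that choice.

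Along the gene the difference was present from the lower end to about 96 kb into the body. In the lowest 36.3 kb the log2 ratio of 13 regions ran from 0.99 to 2.20 with a median of 1.51. In the middle 36.3 kb the 12 regions ran from 1.14 to 2.41 with a median of 1.92. In the uppermost 36.3 kb the 10 regions ran from 0.13 to 2.51 with a median of 1.24. Regions 2-fold or more higher in Luchuan numbered 12, 12 and 6 in the 3 parts. The last of them along the gene, from 31537538 to 31537840, had a log2 ratio of 1.47 (0.78 to 2.21) from 51 Luchuan and 27 Duroc reads. The next region, from 31539046 to 31539213, had 21 and 27 reads and a log2 ratio of 0.21 (-0.69 to 1.08), an interval that includes both no difference and 2-fold. No interval was called in the following 9.995 kb, the longest gap between neighbouring regions of the gene, where the median gap was 2.58 kb.

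**Figure D2:**
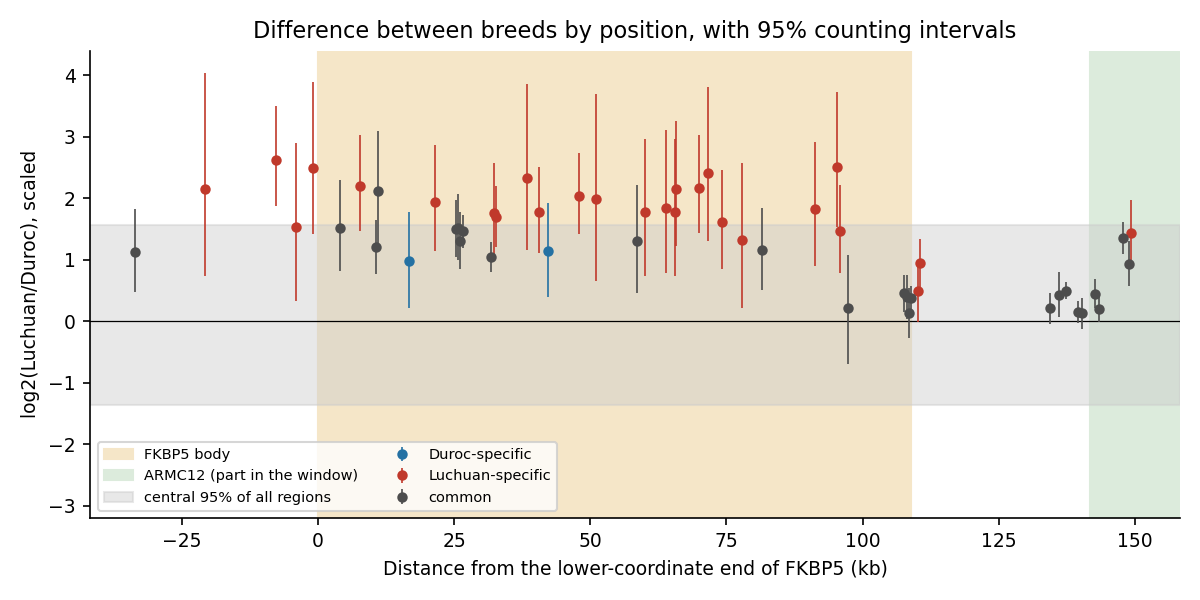
Scaled log2 ratio of Luchuan to Duroc reads of the 53 regions against the distance from the lower end of FKBP5 in kb, with 95% counting intervals as bars and colours for regions called in both breeds or in 1 breed. The 5 regions below the gene and 30 of the 35 regions in it reach 1 or more, and the regions from the upper end up to ARMC12 lie between 0.13 and 0.94, within the grey band that holds the central 95% of all regions (-1.36 to 1.56).

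A stretch of the gene body lay between 25 and 33 kb from the lower end, with limits set after the values were seen, and held 7 regions. They had 1138 of the 2599 Luchuan reads and 659 of the 1619 Duroc reads of FKBP5, or 400 and 232 reads per kb, whereas the 3 body regions within 2 kb of the upper end had 430 and 497. All 7 were 2-fold or more higher in Luchuan, within the narrow range of 1.05 to 1.76. Without them the log2 ratio of the summed reads of the gene was 1.17 (1.05 to 1.29), and 23 of the remaining 28 regions were 2-fold or more higher.

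The call of the authors' peak finder in each breed gives another view of the same counts. Of the 35 regions, 19 (54.3%) were called in Luchuan alone, 14 (40%) in both breeds and 2 (5.71%) in Duroc alone. Over all regions the shares were 19.1%, 49.1% and 31.8%. Intervals called in Luchuan covered 8092 bases of the gene body and those called in Duroc 4297 bases, a ratio of 1.88, and the ratio over the whole table was 0.801. The excess came mostly from intervals found in Luchuan alone. Among the 14 regions called in both breeds, the Luchuan interval was the longer in 5 and the Duroc interval in 9.

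A region called in 1 breed has by that call more signal there, so each class was set beside its own class in the table. The 14 regions of the gene body called in both breeds had a median log2 ratio of 1.25, against 0 for all such regions by construction, and 10 of the 14 were 2-fold or more higher in Luchuan, against 1.05%. Those 10 also lay above 0.80, the 97.5th percentile of the class. The 19 regions called in Luchuan alone had a median of 1.84 (range 1.33 to 2.51), against 0.78, and all 19 were 2-fold or more higher, against 36.5%. Only 3 of the 19 exceeded 2.31, the 97.5th percentile of that class. The pair called in Duroc alone were nonetheless higher in Luchuan. At 31458414 to 31458609, 35 Luchuan reads stood against 26 in Duroc, with 0.99 (0.22 to 1.78), and that from 31483924 to 31484122 had 39 and 26 reads, with 1.14 (0.40 to 1.92). In the class called in Duroc alone, 0.256% of regions were 2-fold or more higher in Luchuan and the median was -0.38.

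The log2 ratio was larger in weak than in strong regions of the gene. The 24 regions with under 100 reads in both breeds together had a median of 1.77, and 22 of them were 2-fold or more higher in Luchuan. The 11 regions with 100 reads or more had a median of 1.30, and 8 of them were 2-fold or more higher. These groups also differed in their calls, with 17 of the 24 called in Luchuan alone against 2 of the 11. The 11 include the 3 body regions within 2 kb of the upper end. The 35021 regions of the table with the fewest reads, 47 or fewer, also leaned to Luchuan, with a median of 0.31 and 22.4% of regions 2-fold or more higher. For the 35020 regions with the most reads, 266 or more, these values were -0.024 and 0.597%. Of the 4 regions of FKBP5 among these, 2 were 2-fold or more higher in Luchuan, and the other pair lies within 2 kb of the upper end.

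The flanks of the gene differed from each other. Below the lower end, the 5 regions had a median log2 ratio of 2.15 and all were 2-fold or more higher in Luchuan, but they held only 187 Luchuan and 72 Duroc reads. Nearest to the gene, the region from 31440841 to 31441007 had 32 and 8 reads, with 2.50 (1.42 to 3.89). The region from 31433885 to 31434220, 7.71 kb from the gene, had 72 and 17 reads and the largest log2 ratio of the window, 2.61 (1.87 to 3.50). The region from 31420954 to 31421137 had 16 and 5 reads, with 2.15 (0.73 to 4.05), and that from 31437737 to 31437886 had 18 and 9 reads, with 1.53 (0.34 to 2.90). Farthest out, the region from 31408036 to 31408301 had 49 and 33 reads, with 1.13 (0.47 to 1.82). Of the 5, 4 were called in Luchuan alone, a class with a median of 0.78 and 36.5% past 2-fold over the whole table. The 1 called in both breeds is the farthest out. Higher Luchuan values were thus also seen below the lower end, but mostly in regions listed only through the Luchuan call.

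Above the upper end, the 13 regions had a median log2 ratio of 0.45, and 2 were 2-fold or more higher in Luchuan. The region that spans the upper end, from 31550445 to 31550998, is the strongest at the gene, with 437 reads in Luchuan, 496 in Duroc and a log2 ratio of 0.38 (0.19 to 0.57). Together with the regions on both sides within 2 kb, 6 in all, it summed to 1029 Luchuan and 1125 Duroc reads, a log2 ratio of 0.44 (0.31 to 0.56). The strongest region of the window, from 31578599 to 31579600, lies between FKBP5 and ARMC12 and had 822 and 863 reads, with 0.49 (0.35 to 0.63). Both regions, and the sum, were higher in Luchuan after scaling and lower before it.

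Both regions of this flank past 2-fold lie inside ARMC12, the next protein-coding gene, from 31583544 to 31601790. From 31589215 to 31589772 there were 337 Luchuan and 195 Duroc reads, with 1.35 (1.09 to 1.62), and from 31590991 to 31591181 there were 90 and 49 reads, with 1.43 (0.92 to 1.97). Between them, from 31590550 to 31590788, were 145 and 112 reads, with 0.94 (0.57 to 1.31). The other 2 regions of ARMC12 in the window had log2 ratios of 0.45 and 0.20. The 8 regions between the upper end of FKBP5 and ARMC12 had a median of 0.40 and none was past 2-fold.

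Because of this contrast, the gene body against both flanks together gives a smaller difference than against the upper flank alone. The 18 flanking regions had a median log2 ratio of 0.71, which is 0.90 below that of the gene body. Their summed reads, 3864 in Luchuan and 4039 in Duroc, gave 0.50 (0.44 to 0.56), and 3677 and 3967 of these reads lay in the upper flank. The summed log2 ratio was 1.94 (1.54 to 2.35) below the gene, 1.25 (1.16 to 1.34) in it and 0.45 (0.39 to 0.52) above it. These 3 intervals do not overlap, but they cover counting error only, in a window chosen on these counts. The 3 parts also differ in how many regions were called in Luchuan alone: 4 of 5, 19 of 35 and 3 of 13. With the region that spans the upper end counted in the body, the difference of medians was 0.63. The summed log2 ratio of the body was then 1.09.

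Outside the window the difference ended within a short distance. The regions just beyond the lower limit, 14.2 and 34.0 kb away, had log2 ratios of 0.84 and -0.32, against 1.13 for the region just inside. Just beyond the upper limit, 1.53 kb away and within ARMC12, a region with 23 Luchuan and 11 Duroc reads had 1.60, against 1.43 just inside, and the next one, 24.2 kb away, had 0.50. Within 500 kb of the middle of the gene and outside the window, 76 regions had a median of -0.13. Of them 5 (6.58%) were 2-fold or more higher in Luchuan and 3 in Duroc, against 7.57% and 5.68% of all regions. In bins of 20 kb, a run of 7 consecutive bins reached from 100 kb below to 40 kb above the middle of the gene. Its bin medians lay between 1.13 and 2.38, and its limits were set after the values were seen. In it 33 of 34 regions were 2-fold or more higher in Luchuan, against 7.57% of all regions, which follows in part from that choice. The bins on either side of this run had 0.84 and 0.46, and 3 other bins, each with 1 region, also reached 1.

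**Figure D3:**
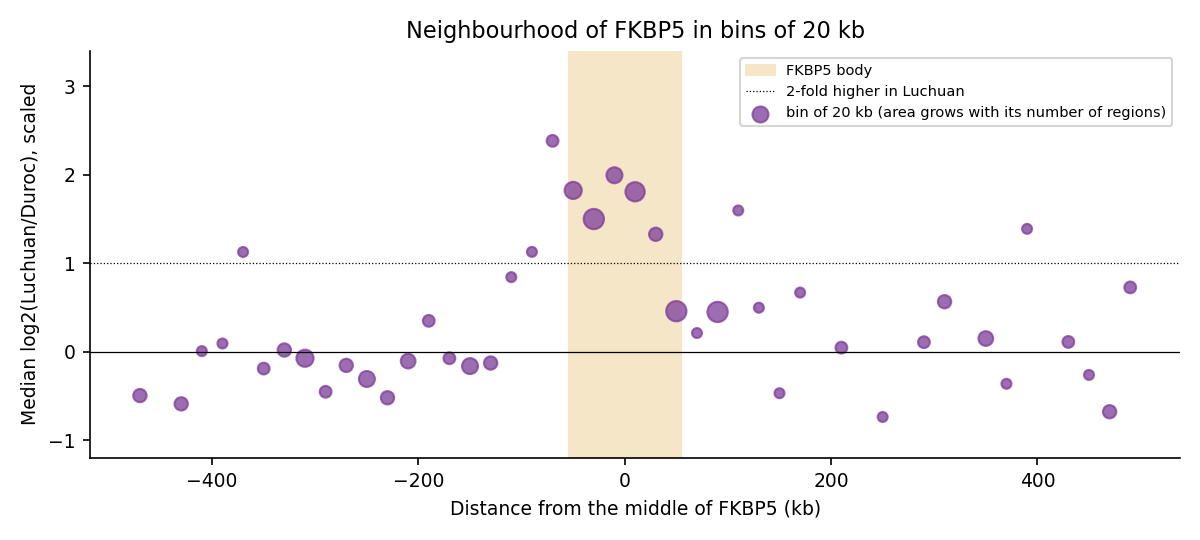
Median scaled log2 ratio of Luchuan to Duroc reads per bin of 20 kb against the distance from the middle of FKBP5 in kb, with the gene body shaded, the area of a point growing with its number of regions and the dotted line at 2-fold. The 7 consecutive bins from -100 to 40 kb lie above the line, and the other bins with more than 1 region lie below it.

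Among genes, FKBP5 stood near the top of the table. Of 2541 protein-coding genes with 10 or more regions in the body, it was number 2 by median log2 ratio, and the central 95% of these genes lay between -0.61 and 0.65. It was number 1 by the share of regions 2-fold or more higher in Luchuan, 85.7%, and by their number, 30. By the log2 ratio of summed reads it was number 3. By the share of regions called in Luchuan alone, 54.3%, it was only number 41, and FNDC1 (92.9%) and SEC14L1 (85.7%) had larger shares. Of the 366 genes with 35 or more regions, the next highest median was 0.77. FKBP5 was also densely covered, with 32.1 regions per 100 kb against a median of 13.7 over these genes. As a window of 200 kb it was number 6 of 5632 with 10 or more regions by median, and number 1 by regions 2-fold or more higher in Luchuan, with 37 against 22 for the next. These ranks follow in part from the selection of the window on these same counts and are a description. Of the 35 regions of FKBP5, 19 were listed only through the Luchuan call.

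The genes nearest to FKBP5 in median log2 ratio between these pooled libraries were few and had fewer regions. FNDC1 alone ranked above it, with a median of 3.19 over 14 regions, 11 of them 2-fold or more higher in Luchuan. Below it came SEC14L1 with 1.49 over 14 regions, SEMA5A with 1.37 over 22 and LRRC3B with 1.33 over 11. SEMA5A held 12 regions 2-fold or more higher in Luchuan and 2 in Duroc, whereas FKBP5 held 30 and 0. A shared order along 1 contrast says nothing of shared control.

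**Figure D4:**
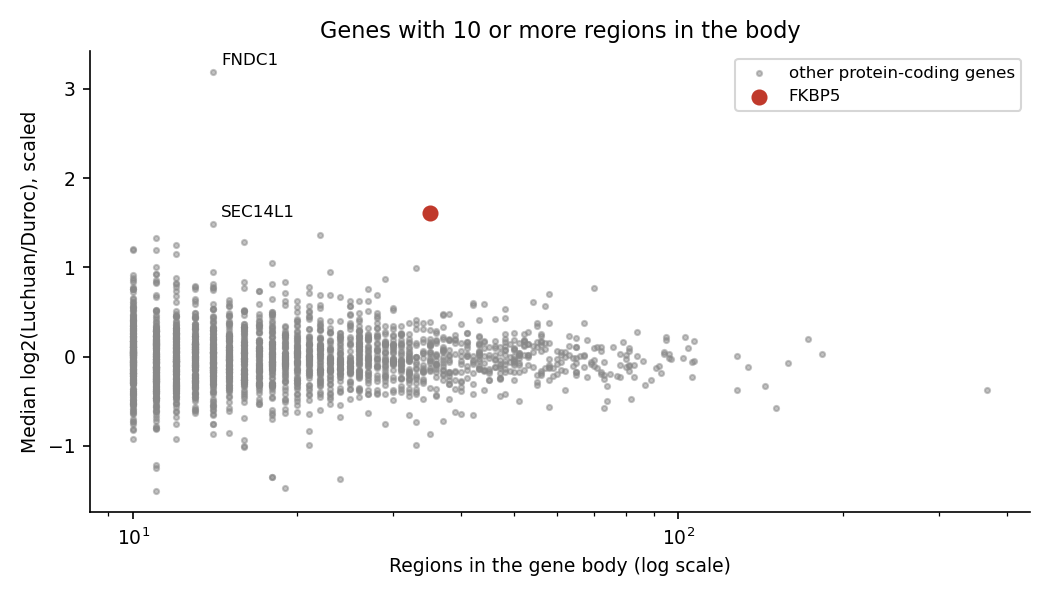
Median scaled log2 ratio of Luchuan to Duroc reads against the number of regions in the gene body (log scale) for 2541 protein-coding genes with 10 or more regions, with FKBP5 in red. FKBP5, at 35 regions and 1.61, lies apart from the other genes with as many regions, whose medians do not exceed 0.77, and FNDC1 is the only gene above it. The FKBP5 window was selected on these same counts.

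Among other genes commonly described as induced by glucocorticoids, PDK4 alone had most of its regions past 2-fold. This list and those of the receptor and the FKBP family were chosen with earlier results of these data known. The list holds 24 genes, of which 23 had a region in the body or within 2 kb of it, and TAT had none. Counted in this way FKBP5 had 39 regions, 31 of them 2-fold or more higher in Luchuan. The other 22 genes had 316 regions with a median log2 ratio of 0.16, of which 13 (4.11%) were 2-fold or more higher in Luchuan and 2 (0.633%) in Duroc, against 7.57% and 5.68% of all regions. By the median of the gene, 18 of the 23 genes lay above 0, FKBP5 included, whereas 48.9% of all regions did. Over the 2541 genes with 10 or more regions in the body, the median of the gene medians was -0.026. Without scaling, the 13 and 2 became 5 (1.58%) and 14 (4.43%), against 2.5% and 20.7% of all regions.

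PDK4, which encodes a kinase that inhibits pyruvate dehydrogenase, had 6 of 7 regions 2-fold or more higher in Luchuan, and its median of 1.85 was above the 1.52 of FKBP5 counted in the same way. FOXO1, a transcription factor of the muscle atrophy program, had 2 of 30 regions 2-fold or more higher in Luchuan and a median of 0.20. KLF9, a transcription factor, had 2 of 14 and a median of 0.27. PIK3R1, a regulatory subunit of phosphoinositide 3-kinase, had 2 of 31 and a median of 0.20. SGK1, a kinase, held both regions of the list that were 2-fold or more higher in Duroc, with a median of -0.27 over 15 regions. TSC22D3 and ZBTB16, named after their values were seen, had no region past 2-fold in either direction among 21 and 75.

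**Figure D5:**
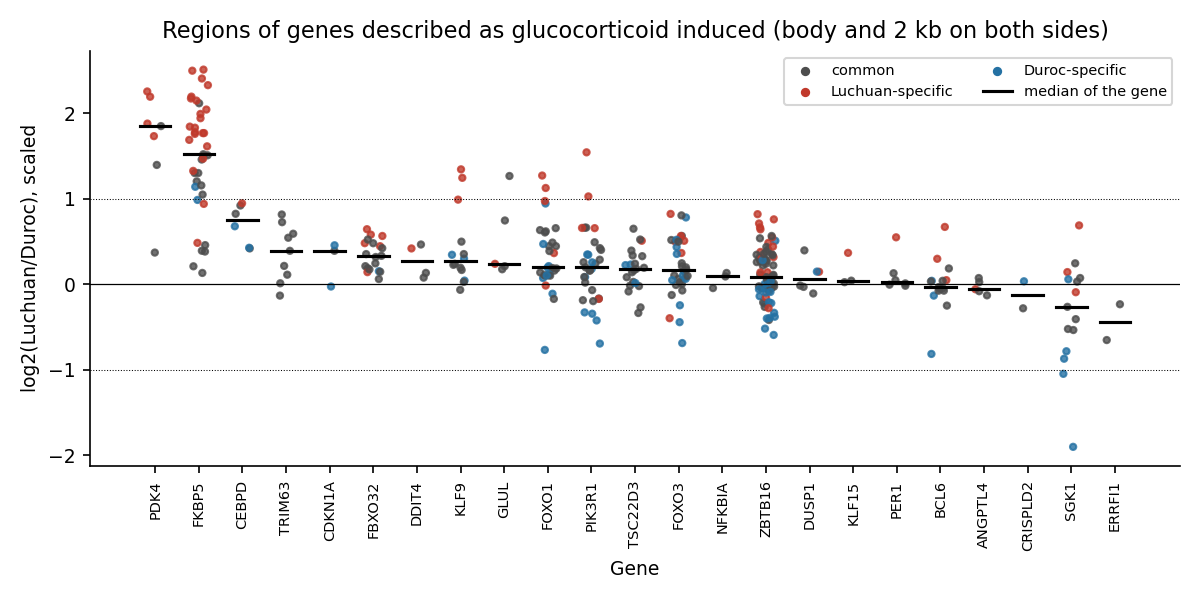
Scaled log2 ratio of Luchuan to Duroc reads of every region in the body or within 2 kb of 23 genes described as glucocorticoid induced, ordered by the median of the gene (black line), with dotted lines at 2-fold and colours for the breed in which a region was called. PDK4 and FKBP5 have medians of 1.85 and 1.52, and the medians of the other genes lie between -0.44 and 0.75.

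The genes that act on the same receptor lay near the scale of the whole table. NR3C1, the glucocorticoid receptor gene, had 40 regions with a median of 0.02 and none past 2-fold, and was named after its values were seen. The list of the receptor, its chaperones and co-regulators and the enzymes of hormone activation gave 14 of 16 genes in the annotation used here, with 238 regions and a median log2 ratio of -0.05. Of these regions 6 (2.52%) were 2-fold or more higher in Luchuan and 10 (4.20%) in Duroc, against 7.57% and 5.68% of all regions. NCOA1, a coactivator, held 2 and 4 of them among its 43 regions. NCOA2, a coactivator of the same family, held 2 and 2 among 27. NR3C2, the mineralocorticoid receptor gene, held 1 and 2 among 57, and HSD11B1, whose enzyme regenerates active cortisol, held 1 and 0 among 12.

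Within its own family, the gene medians of the other members lay between -0.64 and 0.69. These 16 genes of the FKBP family and its relatives had 54 regions with a median log2 ratio of -0.008. Of these, 2 (3.70%) were 2-fold or more higher in Luchuan and 3 (5.56%) in Duroc, against 7.57% and 5.68% of all regions. FKBP6 and FKBP14 held those higher in Luchuan and FKBP15 those higher in Duroc. FKBP4, whose product FKBP52 is the counterpart of FKBP51 on the receptor, had 1 region with 969 Luchuan and 1382 Duroc reads and a log2 ratio of 0.05.

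The makeup of the tissue was examined with marker genes, counted within 2 kb of the gene. All 8 matched genes of the muscle fibre had 3 to 11 regions and between 2006 and 10654 reads, whereas the liver genes ALB and TTR had no region and APOA1 had 1 with 754 reads. The muscle fibre genes had a median log2 ratio of -0.38 over 56 regions, with no gene above 0. Of these regions 0 were 2-fold or more higher in Luchuan and 3 (5.36%) in Duroc, against 7.57% and 5.68% of all regions. The medians were 0.31 over 5 regions for adipocyte genes (FABP4 had none), 0.26 over 11 for endothelium (CDH5 had none), 0.46 over 17 for smooth muscle, -0.11 over 11 for fibroblasts, -0.27 over 9 for leukocytes, -0.25 over 17 for satellite cells and 0.39 over 2 for red cell precursors. Regions 2-fold or more higher in Luchuan numbered 1 for adipocytes (20%), 3 for smooth muscle (17.6%) and 1 for leukocytes (11.1%), against 7.57% of all regions. The 4 remaining cell types had none. In Duroc 1 region of the satellite cell genes (5.88%) and 1 of the leukocyte genes (11.1%) were 2-fold or more higher, against 5.68% of all regions. The part of these cell types in the values of FKBP5 was not tested. In bulk tissue, more cells of a type and more open chromatin per cell cannot be told apart.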

How the data were processed

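The authors filtered the ATAC-seq reads with Trimmomatic (version 0.36), aligned them to Sus scrofa 11.1 with Bowtie2 and called peaks with MACS2. Removal of duplicates, the shift of reads for the transposase and the pooling of animals are not given in the sources used here. The authors deposited whole-number read counts, 1 column per breed and no replicate, which were read as pooled. Their deposited log2 ratio, mean log2 signal and p-value per interval hold the authors' own comparison and were not used. Interval starts were read as counted from 0, since the shortest interval then has 150 bases, and are given counted from 1.

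The members and gene lists were chosen with earlier results of these data known. Common intervals that overlap or touch were merged, with the longest standing for each region. The 19550 protein-coding genes came from RefSeq (Sscrofa11.1), and genes of the window, the list genes with the most regions past 2-fold and the neighbours of FKBP5 in rank were named by rule, in full for the 6 regions with the most reads and the 6 with the largest log2 ratio. With 1 count per breed no test was made. The scaling and intervals were tested on simulated counts that held counting error only. Changes were planted only in regions called in both breeds with 100 or more reads. The test therefore did not cover weaker regions or those called in 1 breed, which make up most of FKBP5. Alternatives covered scaling, merging, low counts, the added count and the limits of the gene. RNA-seq was not analysed here, and the planned motif search was not run. Scripts ran in Python 3.11.15 with pandas 2.3.3 and NumPy 2.4.6, intervals came from SciPy 1.17.1 and plots from Matplotlib 3.10.9.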

Additional observations from a re-analysis of the deposited data

How the results depend on the processing

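The medians, the difference from the flanks and the summed ratio of the FKBP5 body were above 0 under every alternative run. The 3 body regions within 2 kb of the upper end, and the 6 on both sides of it, had more Duroc than Luchuan reads in sum without scaling. No paired analysis was possible because each breed has a single count column with no replicate, and for the same reason no replicate could be left out. Without scaling, the median log2 ratio of the gene body was 1.05, that of the flanks 0.15, the log2 ratio of summed reads 0.68 and the number of regions 2-fold or more higher in Luchuan 18, against 2.5% of all regions. With every interval as listed, the median was 1.48, that of the flanks 0.49 and the summed ratio 1.15. With 5 added to each count, the median was 1.46 and the difference from the flanks 0.77. With 2 kb added at both ends of the gene, the median was 1.52 and the summed ratio 1.07. With any overlap in place of the midpoint, the summed ratio was 1.09, the flanks 0.94 and the difference 0.63. Without the 2 kb at the upper end, an alternative chosen after seeing the data, the median was 1.72 and the summed ratio 1.49. At 3-fold, 18 regions were higher in Luchuan. Without scaling, the counts higher in Luchuan and in Duroc were 5 and 14 for the other glucocorticoid-induced genes, 0 and 46 for the receptor list and 0 and 10 for the other FKBP genes, against 2.5% and 20.7% of all regions. Of the other 34 values, counts changed by at most 1.5-fold. Ratios moved by less than the counting error of the summed reads, combined over body and flanks for their difference. This is not the error of a median over regions. At this depth a region of the window with fewer than 10 Duroc reads fixes its log2 ratio only to within more than 1 unit on either side.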
